A study of Mus musculus with 4 samples.

Results

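Gene expression was compared between mouse embryonic stem (ES) cells with no intact copy of BAF250 and ES cells that kept at least 1 intact copy. The arrays of both homozygous knock-out lines, ko1 and ko2, were set against the wild type and the heterozygous array together, so the comparison used 2 and 2 of the 4 arrays of the study, 1 array per line. All cells were grown on gelatin without feeder cells, in serum-containing medium with leukaemia inhibitory factor (LIF), and no other treatment was named. The wild type and heterozygous lines are called the intact lines below, because both carry an undisrupted allele. The labels do not say whether BAF250 is the product of Arid1a (BAF250a) or Arid1b (BAF250b), which exon was altered, or whether each knock-out line came from 1 clone. Genes were named through the array's annotation, and each was represented by its brightest probe set. Of 18193 named genes, 13709 were bright enough to be tested.

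BAF complexes, the mammalian SWI/SNF chromatin remodellers, use ATP to move or evict nucleosomes. ARID1 proteins are the subunits that set the BAF form apart from the other forms, and ES cells assemble a form of their own, esBAF, that contains ARID1A. ES cells are held undifferentiated by LIF and a network of transcription factors around Oct4, Sox2 and Nanog. The first tissues to form in the embryo include the primitive endoderm. Its parietal descendants lay down a thick basement membrane of type IV collagen and laminin, and its visceral descendants take up and secrete nutrients.

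The signals are microarray intensities in arbitrary units, scaled here so that all arrays had the same median. On that scale 117 genes rose and 30 fell in both homozygous lines, which is 0.853% and 0.219% of the genes tested (limma, Benjamini-Hochberg adjusted p under 0.05). Log2 differences are taken between log2(signal + 0.676) values. They ran from 1.51 to 7.44 with a median of 2.84 for the rises and from -4.86 to -1.44 with a median of -2.14 for the falls. The median over all genes tested was -0.01. In none of the 147 called genes (1.07%) did an array of one side overlap the other side. In 113 of the 117 rises and all 30 falls the gap between the nearest arrays was at least 2-fold. Of all genes tested, 38.8% did not overlap, and 4.51% (upwards) and 3.36% (downwards) had such a gap. The separation of the calls follows in part from their selection by the test. Some rises were at background in the intact lines. In 36 of the 117 (30.8%) both intact arrays were at or below background, taken on each array as the brightest of 27 control probe sets for bacterial transcripts that were not added. In 3 of the 30 falls both homozygous arrays were at or below background. Of all genes tested, 42.6% lay at or below background on the wild type array and 59.7% on the heterozygous array. The shares were 45.2% on ko1 and 32.9% on ko2, and the share on both arrays of a side was not counted. The middle rise had signals of 77.2 and 47.2 in ko1 and ko2, and of 8.74 and 7.42 in the wild type and heterozygous arrays (medians over the 117 genes). The middle fall had 13.6 and 14.6 against 74.2 and 61.2.

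**Figure D1:**
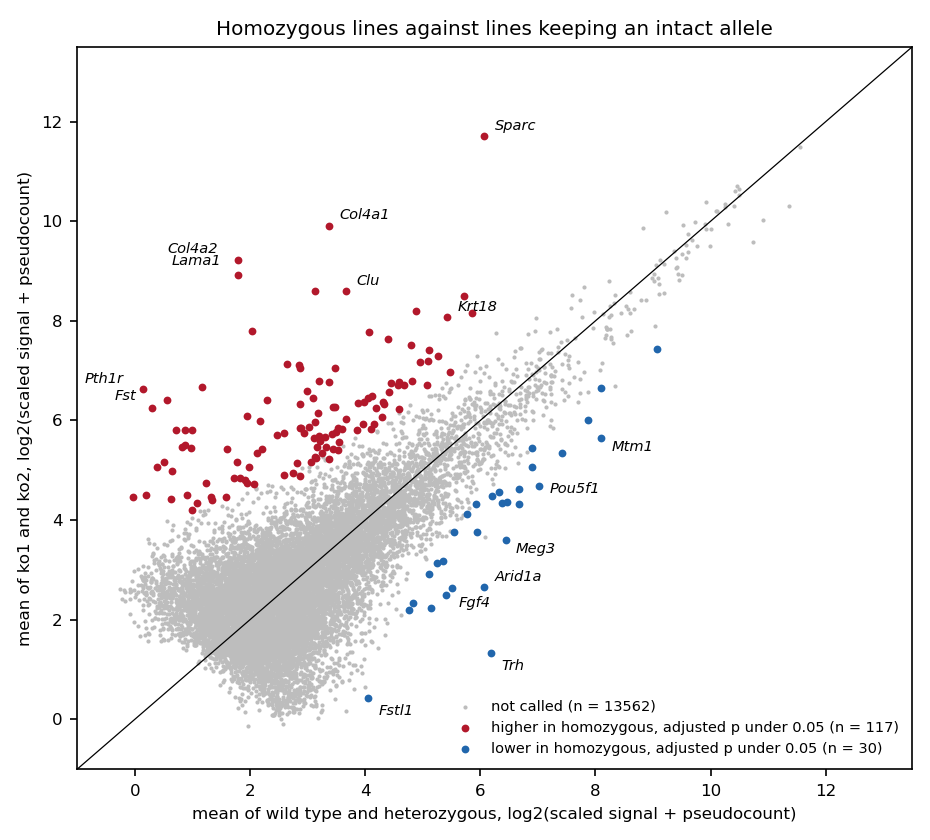
Mean log2(scaled signal + pseudocount) of ko1 and ko2 (vertical) against that of wild type and heterozygous (horizontal), 1 point per gene tested, with called genes coloured and the diagonal marking equal levels. The 117 red points (higher in the homozygous lines) reach further from the diagonal than the 30 blue points, and many of them lie at the dim end of the horizontal axis.

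These counts rest on few arrays. With 2 against 2, an exact two-sided permutation test of a single gene cannot go below p = 0.333, so the calls depend on limma sharing its estimate of the spread across genes. With a spread that does not follow the intensity of the signal, limma called 0 genes (669 higher and 506 lower at an unadjusted p under 0.05). With all probe sets of a gene averaged it called 16 higher and 0 lower (686 and 577 unadjusted). The spread behind the p-values came from the difference between ko1 and ko2 and that between wild type and heterozygous. Any effect of losing 1 allele is therefore counted as spread, together with differences between the knock-out lines. The labels do not say that the lines were cultured more than once, so part of this spread may be technical. The share of rises among the calls depended on how the arrays were levelled. It was 79.6% with a common median, 67.4% (62 higher, 30 lower) with the signals as deposited and 26.5% (66 higher, 183 lower) with the 18 spiked control probe sets set level. These controls had scaled medians of 705 and 958 in the homozygous arrays (ko1 first), and of 517 and 523 in the intact arrays (wild type first), and levelling by them moved the median gene to -0.59, levelling by nothing to -0.29. Leaving out ko1 left 17 higher and 8 lower, and leaving out wild type left 122 and 8. A set of 15 rises and 4 falls passed whichever array was left out. The 3′ to 5′ signal ratio of the actin controls, a sign of RNA integrity, was highest in ko1, at 5.01, followed by heterozygous at 2.86, ko2 at 2.61 and wild type at 1.30, and its part in the results was not tested.

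Whether arrays of the same side were closer than those of opposite sides depended on the measure and the genes. Over the 13709 genes the median absolute log2 difference was 0.75 between ko1 and ko2 and 0.66 between wild type and heterozygous. It was 0.74 between ko2 and wild type, 0.75 between ko2 and heterozygous, 0.81 between ko1 and wild type and 0.83 between ko1 and heterozygous, so that by this measure ko2 was no closer to ko1 than to the intact lines. Large differences between bright genes were fewer within the sides. Among the 3591 genes above background on all 4 arrays, ko1 and ko2 differed by at least 4-fold in 15 genes and wild type and heterozygous in 4. The 4 pairs across the sides differed that much in 38 to 111 genes. A gap of at least 2-fold between the sides was found in 67 of the 3591 upwards (1.87%) and in 62 downwards (1.73%). The correlation of log2 signals over these genes was 0.878 between ko1 and ko2 and 0.904 between wild type and heterozygous, against 0.768 to 0.834 across (over the 13709 genes 0.631 and 0.678, against 0.561 to 0.625), with genes as points and not as replicates. Among the 13709 genes, both homozygous arrays lay above both others in 2678 (19.5%) and below both in 2639 (19.3%), so that 5317 (38.8%) did not overlap. Over all genes tested such a gap was found in 618 (4.51%) and 461 (3.36%), and most of these, 505 and 431, did not pass the test. Those uncalled genes were dim, with a median of 9.33 and 8.55 for their brightest array.

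Basement membrane genes included the widest gaps of all called genes. Col4a1 and Col4a2, which encode the chains of the most common type IV collagen, lie head to head on chromosome 8, with annotated starts 21 bases apart. Both rose. Their RefSeq promoter windows (GRCm38.p6, 250 bases before the start and 50 after it, written on the gene's strand) overlap by 78 bases and are shown because the pair moved together. Those of Sparc, another large rise, and Fgf4, a large fall, are shown for contrast. Capitals mark CCAAT on either strand, the binding sequence of the factor NF-Y.
Col4a1, chr8:11312777-11313076, - strand: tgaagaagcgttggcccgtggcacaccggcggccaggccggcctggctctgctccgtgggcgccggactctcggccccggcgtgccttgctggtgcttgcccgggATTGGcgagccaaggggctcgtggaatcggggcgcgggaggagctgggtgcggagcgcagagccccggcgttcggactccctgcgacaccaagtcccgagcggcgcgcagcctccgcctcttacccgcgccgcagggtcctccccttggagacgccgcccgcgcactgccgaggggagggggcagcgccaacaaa
Col4a2, chr8:11312555-11312854, + strand: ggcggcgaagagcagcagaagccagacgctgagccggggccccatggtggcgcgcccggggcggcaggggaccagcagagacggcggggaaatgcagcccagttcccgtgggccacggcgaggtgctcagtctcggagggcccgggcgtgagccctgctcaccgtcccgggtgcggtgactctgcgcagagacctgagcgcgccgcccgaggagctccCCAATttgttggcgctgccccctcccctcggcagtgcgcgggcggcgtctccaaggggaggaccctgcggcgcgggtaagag
Sparc, chr11:55420031-55420330, - strand: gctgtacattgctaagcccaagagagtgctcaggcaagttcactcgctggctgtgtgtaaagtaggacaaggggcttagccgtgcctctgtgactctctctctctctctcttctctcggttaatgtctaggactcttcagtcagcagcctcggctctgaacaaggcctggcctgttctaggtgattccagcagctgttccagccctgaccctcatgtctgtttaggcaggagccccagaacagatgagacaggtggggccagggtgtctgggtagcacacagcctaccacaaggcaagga
Fgf4, chr7:144861136-144861435, + strand: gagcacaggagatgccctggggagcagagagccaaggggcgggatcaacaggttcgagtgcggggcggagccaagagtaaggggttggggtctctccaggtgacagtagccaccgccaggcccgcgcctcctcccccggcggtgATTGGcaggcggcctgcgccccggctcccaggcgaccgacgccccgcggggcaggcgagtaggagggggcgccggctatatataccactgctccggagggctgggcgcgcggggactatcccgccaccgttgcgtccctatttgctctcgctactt
CCAAT was found once in each window except that of Sparc. It occurred in 38.4% of the 10994 windows of tested genes, in 35.9% of the 92 windows of rises and in 37.0% of the 27 windows of falls. The Sparc window also differed in base composition, with 55.3% G+C and 4 CpG against 74.0% and 37 for Col4a1.

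Signals are given from here on as ko1 and ko2 against wild type and heterozygous, in that order. Col4a1 read 1237 and 753 against 7.63 and 12.2. Both homozygous lines were thus far above both intact lines, by 93.3-fold on the fitted scale (log2 difference 6.54 ± 0.37 (SE), 2 against 2 arrays, limma adjusted p = 3.81e-11). Col4a2 read 839 and 430 against 0.847 and 7.15, with both intact arrays at background. For such genes the fold is a lower bound, the mean of the bright side over the backgrounds of the dim side. Col4a2 was at least 92.7-fold higher (adjusted p = 1.55e-09).

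Lama1, the laminin alpha chain made early by the embryo's endoderm, read 734 and 317 against 8.14 and 0.677, of which only the last was below background (log2 difference 7.13 ± 0.57, adjusted p = 1.04e-08). Its partner chain Lamc1 rose from 19.1 and 13.4 in the intact lines to 323 and 150. Lamb1, the beta chain, named to complete the list, read 228 and 85.9 against 4.48 and 6.93. All arrays of the homozygous lines were above all others for each chain, and ko1 was the highest in each. Sparc, a collagen-binding secreted protein, was the brightest rise, at 4261 and 2621 against 67.1 and 66.2 (49.6-fold; log2 difference 5.63 ± 0.42, adjusted p = 4.30e-09). A second Sparc probe set gave 1105 and 947 against 16.4 and 31.3, while another, dim one showed no gap (12.3 and 5.6 against 10.9 and 12.7).

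Of 26 measured basement membrane and matrix genes, 6 rose and 1, Fn1, fell. The 6 are those just named, and each passed whichever array was left out. The others did not move as a group. The list's median difference was 0.55, against -0.01 for all genes, 12 members lay above both intact arrays and 4 below, and with the spiked controls set level the median was -0.09. For such counts, here and in the lists below, the shares over all genes tested were 19.5% above both and 19.3% below both. Fn1 encodes fibronectin, an interstitial as well as basement membrane protein. It read 12 and 31.0 in the homozygous lines against 107 and 97.3 (log2 difference -2.36 ± 0.41, adjusted p = 0.00147) and did not pass without ko1. Uncalled members included Col4a6, at 10.7 and 7.35 against 1.78 and 0.455 (adjusted p = 0.398), and Fbln2, at 17.6 and 9.45 against 6.97 and 1.76 (adjusted p = 0.471).

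**Figure D2:**
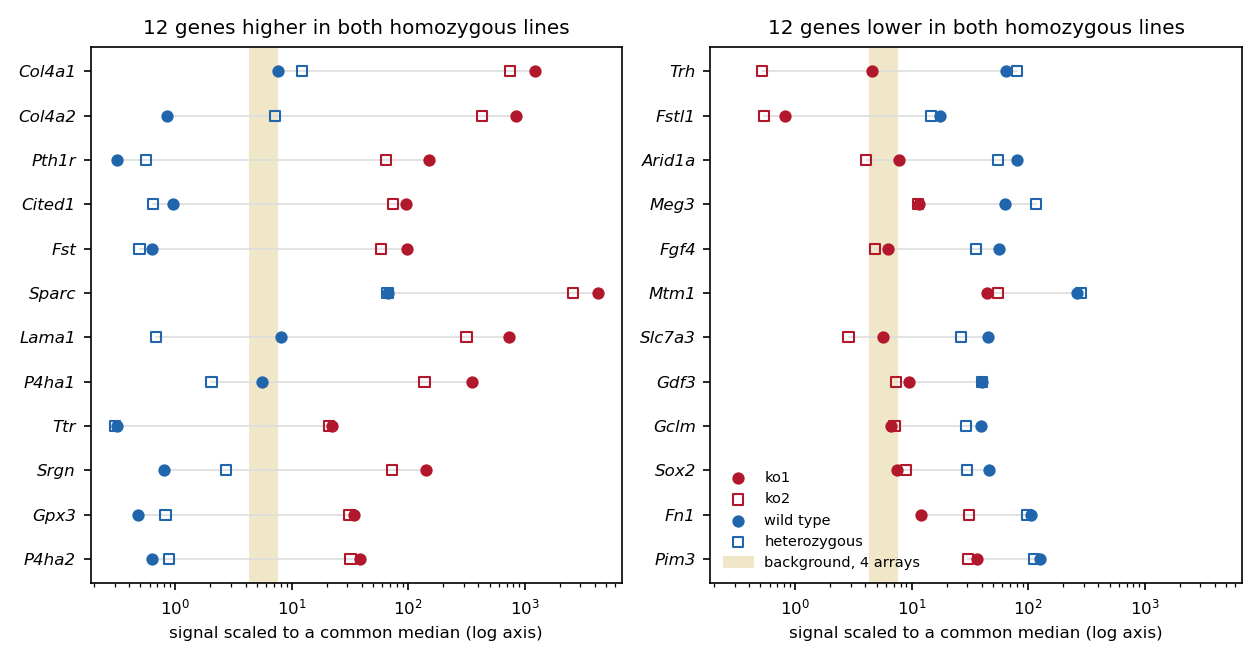
Scaled signal of each array on a log axis for the 12 rises (left) and 12 falls (right) with the widest gap between the nearest arrays of the 2 sides; red marks the homozygous lines, blue the intact lines, and the shaded band spans the backgrounds of the 4 arrays. Most rises start within or below the band, but Sparc (67.1 and 66.2) and Col4a1 (7.63 and 12.2) start above it. Most falls end in or near the band. Mtm1, Pim3 and, in ko2, Fn1 end further above it, and Fstl1 and, in ko2, Trh end far below it.

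Some of the enzymes that make collagen chains foldable rose as well. Of 19 measured genes for collagen folding and crosslinking 6 rose and none fell, 13 lay above both intact arrays and none below, and the median difference was 1.63. P4ha1 and P4ha2, alternative catalytic subunits of prolyl 4-hydroxylase, were at background in both intact lines. P4ha1 had 356 and 138 against 5.58 and 2.04 (at least 34.2-fold, adjusted p = 1.86e-08). P4ha2 had 38.7 and 31.9 against 0.633 and 0.877 (at least 5.42-fold, adjusted p = 0.000199). The lysyl hydroxylase Plod2 read 114 and 106 against 8.83 and 8.12, so that the arrays within each side nearly coincided (12.1-fold, adjusted p = 2.01e-06). Serpinh1, the collagen chaperone HSP47, had 689 and 221 against 24.9 and 2.34, the last below background. It is also a member of the list of endoderm products. Plod3 and Ppib, a lysyl hydroxylase and a prolyl isomerase, also passed, at fitted folds of 3.89 and 4.92. Plod1 (30.3 and 19.1 against 7.25 and 5.06, adjusted p = 0.0995) and P3h2 (24.5 and 10.1 against 1.47 and 1.18, adjusted p = 0.0716) were separated but did not pass. The count was 2 without ko1 (P4ha1 and Plod2, which passed whichever array was left out) and 4 without heterozygous. It was also 4 with unscaled signals.

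Of 18 measured regulators of extraembryonic endoderm 7 rose and none fell. The median difference was 1.75, with 12 members above both intact arrays and 2 below both. Over the 5 members above background on all 4 arrays the median was only 0.04. Of 22 listed genes 18 passed the filter on mean signal and were tested. Members silent in the intact lines passed it only through the homozygous arrays, so this list median is partly set by the filter. Cited1, a transcriptional coactivator, had 96.1 and 73.6 against 0.950 and 0.644 (at least 13.0-fold, adjusted p = 2.68e-07). Fst, which encodes the activin inhibitor follistatin, had 97.0 and 58.5 against 0.629 and 0.491 (at least 11.6-fold, adjusted p = 6.34e-07). Neither gene was above background in any intact line.

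Gata4, a zinc-finger factor that drives primitive endoderm, was above background on all 4 arrays, at 75.0 and 43.6 against 5.90 and 7.60 (log2 difference 2.97 ± 0.45, adjusted p = 0.000254). Sox17, an HMG-box factor of endoderm, read 48.4 and 41.4 against 2.99 and 0.235 (at least 6.91-fold, adjusted p = 0.000141). Gata6, which acts with Gata4, read 28.1 and 26.5 against 2.37 and 3.97 (at least 4.21-fold, adjusted p = 0.00616). The homozygous arrays lay close together for both Sox17 and Gata6. Pdgfra (21.8 and 9.64 against 0.714 and 2.03, adjusted p = 0.102) and Sox7 (18.0 and 10.4 against 2.22 and 0.832, adjusted p = 0.131), a receptor and a transcription factor of primitive endoderm, were separated upwards without passing. Cebpa, a leucine zipper factor, was separated downwards without passing, at 0.329 and 1.46 against 8.38 and 3.54 (adjusted p = 0.631). Among the regulators no call was left without ko1, 3 without ko2 and 5 without either intact array.

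Products of visceral and parietal endoderm had the largest median difference of the lists examined, 2.23. The members of all lists were chosen with earlier results of these data known, so their order may partly reflect that choice. Of 30 listed genes 21 were tested, after a filter on the mean signal of all 4 arrays. Genes silent in the intact lines passed it only through the homozygous arrays, so the list median is partly set by the filter. Of the 21 members 9 rose and none fell, and 14 lay above both intact arrays with 1 below both. Over the 6 members above background on all 4 arrays the median difference was 1.97. Pth1r, the receptor for parathyroid hormone and its related peptide, had 150 and 64.9 against 0.318 and 0.555 (at least 15.2-fold, adjusted p = 1.48e-07). Srgn, the proteoglycan serglycin, had 143 and 72.6 against 0.796 and 2.71 (at least 15.7-fold). Clu, a secreted chaperone, had 499 and 302 against 9.17 and 15.6 and so was above background in every line (30.7-fold, adjusted p = 7.00e-09). The carrier protein transthyretin, Ttr, was much dimmer, at 22.1 and 21.0 against 0.313 and 0.300 (at least 3.32-fold, adjusted p = 0.00577), and did not pass if either homozygous array was left out. Cubn, the uptake receptor cubilin, and Dab2, its endocytic adaptor, are among the 9 and among the marker genes. Cubn had 107 and 28.3 against 0.757 and 1.20, and Dab2 had 72.2 and 34.7 against 7.68 and 10.9. The retinol carrier Rbp4 (38.0 and 14.2 against 4.64 and 4.24, adjusted p = 0.0675) did not pass. The count was 3 without ko1 (Clu, Ctsh and Ctsl) and 9 or 10 without any other array.

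Some rises outside these lists also had wide gaps. Gpx3, a secreted glutathione peroxidase, had 34.4 and 31.2 against 0.475 and 0.820 (at least 5.06-fold, adjusted p = 0.000339), and did not pass if either homozygous array was left out. Lrpap1, the chaperone that escorts receptors of the low-density lipoprotein receptor family, had 450 and 190 against 29.5 and 28.4 (9.90-fold). Ckap4, a membrane protein of the endoplasmic reticulum, had 211 and 187 against 17.1 and 24.1 (9.51-fold). For Lrpap1 and Ckap4 all 4 arrays were above background, and both passed whichever array was left out.

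Lists for the secretory and degradative compartments held few calls but many separated members. Of 49 genes for the secretory machinery of the endoplasmic reticulum only 2 rose, Kdelr3, a retrieval receptor (63.1 and 51.8 against 8.08 and 5.46), and Pdia3, a disulphide isomerase (92.1 and 69.0 against 23.2 and 16.1). Yet 29 lay above both intact arrays and 3 below, 45 had a positive difference, and the median was 0.97. The count was 0 without ko1 and 8 without ko2, and it was 1 with unscaled signals. Of 29 lysosomal genes 5 rose and none fell, all of them proteases or their protective protein: Ctsh, Ctsl, Lgmn, Ctsb and Ctsa. Ctsh had 99.1 and 71.9 against 4.93 and 3.62 (at least 13.0-fold, adjusted p = 2.01e-06), and Ctsl had 210 and 156 against 34.7 and 21.2. In that list 20 members lay above both intact arrays and 2 below, and the median was 0.85. Ctsh and Ctsl alone passed whichever array was left out. Ccnd2, encoding cyclin D2, rose too, with 145 and 121 against 16.5 and 6.56, while Ccnd1, cyclin D1, had 0.875 and 13.2 against 31.6 and 22.7 and did not pass (adjusted p = 0.0921).

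**Figure D3:**
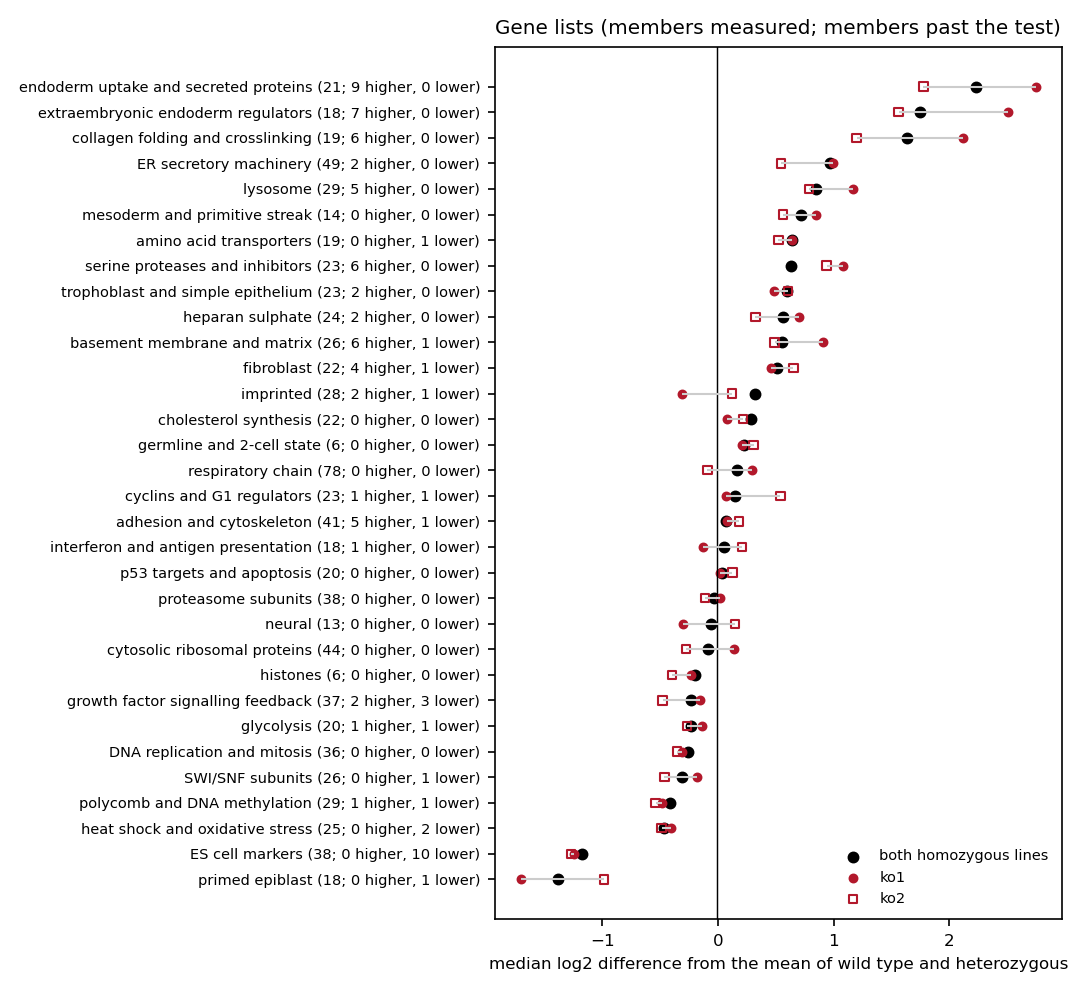
Median log2 difference from the mean of the intact lines for each gene list, over both homozygous lines (black), ko1 (filled red) and ko2 (open red); brackets give the members measured and those past the test. Endoderm lists lie furthest right, at 2.23 and 1.75, and ES cell markers and primed epiblast genes furthest left, at -1.17 and -1.38. Over members above background on all 4 arrays these medians were 1.97, 0.04, -1.24 and -1.35. List members were chosen with earlier results of these data known.

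On the falling side, Arid1a was the only SWI/SNF subunit of 26 measured to pass. It read 7.72 and 4.05 against 80.6 and 54.6. In ko2 it was below background, in ko1 just above it, and both intact lines were far higher (log2 difference -3.41 ± 0.46, adjusted p = 5.51e-05). On a second Arid1a probe set ko1 read 19 and ko2 1.20, against 31.8 and 26.1. Arid1b was below background on every array and was not tested. Arid1a passed whichever array was left out. Other subunits gave values such as 0.876 and 6.67 against 12.8 and 10.9 for the core subunit Smarcc2 (adjusted p = 0.452). The list's median was -0.31, with 1 member above both intact arrays and 9 below. Over all genes tested 19.3% lay below both, and 26.0% of the genes above background on every array.

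ES cell markers fell in part. Of 38 measured, 10 fell and none rose, 24 lay below both intact arrays and 4 above, and the median difference was -1.17. Fgf4, the growth factor that ES cells make and respond to, had 6.29 and 4.85 against 56.0 and 35.8 (log2 difference -2.87 ± 0.48, adjusted p = 0.00081). Gdf3, a ligand of the TGF-beta family, had 9.48 and 7.35 against 39.8 and 40.2 (log2 difference -2.17 ± 0.45, adjusted p = 0.00844). Sox2 had 7.51 and 8.88 against 46.3 and 30.0 (log2 difference -2.10 ± 0.46, adjusted p = 0.0158). Utf1, a chromatin-bound protein of pluripotent cells, was brighter, at 36.9 and 43.2 against 229 and 126 (log2 difference -2.07 ± 0.37, adjusted p = 0.0019).

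The homozygous lines were not equally low in all of these. Pou5f1, which encodes Oct4, had 12.9 in ko1 and 47.8 in ko2 against 157 and 107 (adjusted p = 0.00411). Tdgf1, the Nodal co-receptor Cripto, had 8.01 and 20.5 against 59.2 and 62.0 (adjusted p = 0.00658). For both, ko2 lay between ko1 and the intact lines. The remaining calls were Phc1, a polycomb protein (18.2 and 21.3 against 127 and 53.4), Mycn, a Myc family factor (23.5 and 16.1 against 59.6 and 60.4), Klf2, a Krüppel-like factor (21.4 and 22.1 against 107 and 49.5), and the nuclear receptor Esrrb. Zfp42 (8.65 and 13.3 against 33.5 and 29.1, adjusted p = 0.158) and Nanog (8.31 and 8.95 against 33.3 and 12.6, adjusted p = 0.488) did not pass. The number of falls among the 38 was 1 without ko1, 4 without ko2, 1 without wild type and 7 without heterozygous, and 16 with the spiked controls set level. None of the 10 passed under every left-out array.

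Genes of the primed epiblast, the state that follows the naive one, were also on the low side. Of 18 measured 1 fell, none lay above both intact arrays, 10 lay below both and the median was -1.38. The call was Igfbp2, an insulin-like growth factor binding protein (17.3 and 33.1 against 141 and 72.9, adjusted p = 0.00577), which did not pass without ko1 or without wild type. Otx2 (0.831 and 2.82 against 17.3 and 7.01, adjusted p = 0.327), Foxd3 (1.69 and 0.829 against 11.5 and 9.05, adjusted p = 0.304) and Pou3f1 (1.38 and 2.03 against 8.99 and 13.4, adjusted p = 0.305), all transcription factors, were near or below background on most arrays.

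Several of the deepest falls belonged to no pluripotency list. Trh, the precursor of thyrotropin-releasing hormone, had 4.59 and 0.518 against 64.8 and 80.1 (at least 14-fold lower, adjusted p = 1.32e-05). Meg3, a maternally expressed imprinted noncoding RNA, had 11.4 in both homozygous lines against 63.3 and 117 (log2 difference -2.85 ± 0.41, adjusted p = 0.000126). The 3 next brightest of its 10 other probe sets gave differences of -3.27, -2.76 and -2.78, and 1 above background on 3 arrays gave 0.52. Rian, a neighbouring imprinted transcript, had 0.891 and 0.335 against 8.15 and 5.99 and did not pass (adjusted p = 0.484).

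Mtm1, a lipid phosphatase, was bright on every array, with 43.9 and 55.2 against 262 and 285 (log2 difference -2.46 ± 0.35, adjusted p = 0.000122). Trh, Meg3, Mtm1 and Arid1a were the 4 falls that passed whichever array was left out. Fstl1, a secreted glycoprotein, had 0.815 and 0.541 against 17.4 and 14.6 (at least 3.10-fold lower, adjusted p = 0.0413), and its call was lost with any array left out. Slc7a3, a carrier of cationic amino acids, had 5.63 and 2.86 against 45.1 and 26.7 (at least 6.74-fold lower, adjusted p = 0.00301). Gclm, the modifier subunit of the enzyme that starts glutathione synthesis, had 6.66 and 7.10 against 39.1 and 29.2 (adjusted p = 0.0143). Pim3, a serine/threonine kinase, had 36.2 and 30.2 against 126 and 112 (adjusted p = 0.00467). Slc7a3 did not pass without ko2 or without wild type, and Gclm and Pim3 did not pass with any array left out.

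Further falls, of genes above background on every array, were smaller. Ldhb, a lactate dehydrogenase subunit, had 22.2 and 23.5 against 91.0 and 69.2 (log2 difference -1.77 ± 0.37, adjusted p = 0.0105). Hspb1, a small heat shock protein, had 186 and 159 against 595 and 481 (log2 difference -1.63 ± 0.38, adjusted p = 0.0278). Chchd10, a mitochondrial protein, had 60.1 and 67.1 against 309 and 178, and Hmces, which shields abasic sites in DNA, had 30.0 and 13.1 against 88.7 and 85.6. Each homozygous array was below each intact one in all 4 genes. Hspb1 did not pass with any array left out, Ldhb and Chchd10 passed only when that array was heterozygous, and Hmces did not pass without ko2. Of the genes above background everywhere, 51 rose and 23 fell, 1.42% and 0.64% of the 3591.

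Marker genes were summed to show which cell types moved with these groups. The summed signal of 13 extraembryonic endoderm markers was 6787 in ko1 and 3975 in ko2 against 114 and 117, with 12 and 13 of them above background against 5 and 4, and 10 rose. Sox7 and Pdgfra were separated upwards without passing, and Amn did not rise. It read 0.419 and 5.97 against 5.25 and 6.01, above background on 1 array (log2 difference -1.22, limma adjusted p = 0.774). Without Sparc, the brightest, the sum of the markers was 2526 and 1354 against 46.8 and 50.7. The sum of 9 ES cell markers was 826 and 982 against 2413 and 2101, most of it from Dppa5a, which did not pass (adjusted p = 0.469), and 103 and 159 against 682 and 433 over the other 8. All 9 stayed above background on every array, and 6 fell. In bulk RNA, fewer cells of a type and less RNA per cell cannot be told apart. Of 10 trophoblast markers Krt8 and Krt18 rose. The sum over all 10 was 526 and 408 against 88.1 and 134, and the keratin pair made up 484 and 365 against 52.7 and 108 of it. Cdx2, Eomes, Elf5, Gata3, Ascl2 and Krt7 were below background or above it on 1 array. Hand1 was above it on 3 arrays (10.2 and 14.3 against 9.92 and 6.54). Tfap2c was above it on 2 (7.75 and 1.13 against 9.33 and 4.28), and neither passed. Of 10 fibroblast markers Vim rose, with sums of 169 and 156 against 75.9 and 38.5. Col1a1 had 4.87 and 12.4 against 3.99 and 6. Col3a1 was above background on 1 array, and Col1a2 had 18.2 and 29.0 against 5.80 and 3.08 (adjusted p = 0.0551). Of the 22 measured genes of the wider fibroblast list 4 rose (Ccn1, Ccn2, Timp2 and Vim) and 1, Fstl1, fell, with 10 above both intact arrays, 1 below and a median difference of 0.51 (-0.12 with the spiked controls set level). Sums of 6 neural markers were 60.7 and 42.2 against 91.5 and 78.7, those of 5 mesoderm markers 26.3 and 25.1 against 26.9 and 22.8, and those of 4 germline markers 25.8 and 27.7 against 29.3 and 24.9, with no call among them. The part of other cell types in the results was not tested.

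Both sides had an inner order. Among the rises ko1 was above ko2 in 101 of 117 genes (86.3%), against 55.6% of all genes tested and 65.0% of those above background everywhere. The median difference from the intact lines was 3.12 in ko1 and 2.62 in ko2. Among the falls ko1 was the lower line in 16 of 30, with medians of -2.20 and -1.94. Heterozygous was below wild type in 23 of the 30 falls (76.7%, against 55.6% of all genes) and above it in 50 of the 117 rises. The median wild type minus heterozygous difference was 0.32 for the falls, 0.07 for the rises and 0.14 for genes above background everywhere. These orders compare single arrays and were not tested.

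Groups with no call in either direction included 44 cytosolic ribosomal protein genes (median difference -0.08), 78 of the respiratory chain (0.16), 38 proteasome subunits (-0.04) and 36 of DNA replication and mitosis (-0.26). In simulated data the fit recovered 0% of 2-fold changes, so the lack of calls says nothing about changes of that size. At an unadjusted p under 0.05 limma picked 1301 of all genes tested. In the replication list 13 members lay below both intact arrays and 2 above. Of all genes above background on every array, as 29 of the 36 were, 26.0% lay below both and 18.6% above. Among the 13 was the sliding clamp Pcna, with 44.7 and 73.3 against 167 and 142 (adjusted p = 0.0564). With the spiked controls set level, 4 of the 36 fell.

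The calls end in a continuum. Just inside the threshold lay Selenop, a selenium carrier (15.9 and 19.6 against 2.67 and 0.511, adjusted p = 0.0466), Esrrb (14.4 and 11.7 against 67.8 and 31.3, 0.0474), the protease inhibitor Serpinb6a (56.3 and 24.4 against 4.78 and 13.7, 0.0488) and the histone chaperone Set (93.2 and 107 against 317 and 233, 0.0494). Just outside lay Fam189a2 (36.0 and 17.3 against 3.04 and 6.6, 0.0507), the splicing factor Srsf6 (50.7 and 32.4 against 108 and 115, 0.0513), the chaperone Hyou1 (83.7 and 29.4 against 11.7 and 15.4, 0.0513) and the corepressor Ctbp2 (16.4 and 20.3 against 50.3 and 59.9, 0.0513). The arrays of the sides were separated in all 8 on the probe sets used. A second Esrrb probe set, above background on all 4 arrays, showed no gap (18.8 and 20.5 against 19.4 and 15.4). Where called genes had further probe sets, 127 of the 135 that were above background on at least 2 arrays had the same sign as the one used. The other 8 had the opposite one, among them sets of Ctsa, Esrrb, Pim3, Sparc and Meg3.

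**Figure D4:**
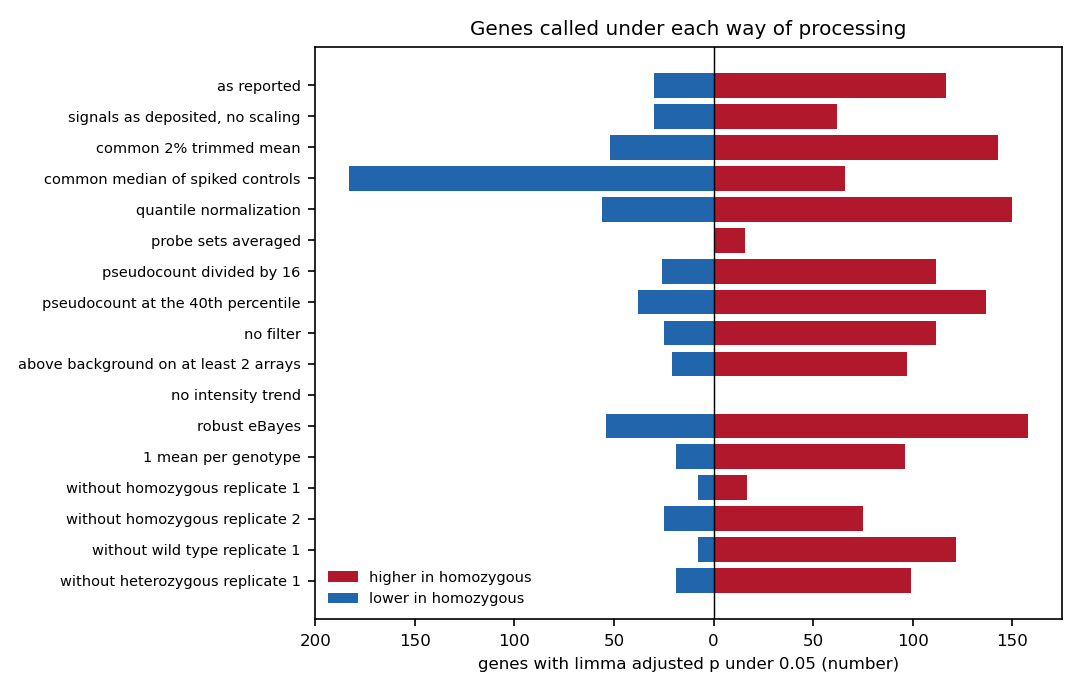
Number of genes with limma adjusted p under 0.05, higher (red, right) and lower (blue, left) in the homozygous lines, under each way of processing. Rises outnumber falls in every setting with calls except when the spiked controls were set level, where 66 rose and 183 fell; no gene was called without the intensity trend.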

How the data were processed

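Total RNA of 4 mouse ES cell lines was hybridised to Affymetrix arrays, 1 array per line, per the labels' protocols. The authors deposited 1 linear intensity for every probe set and array, and the submitters' processing notes name MAS5, with version and scaling not given in the sources used here. Arrays have no read depth, and their number limits the precision. Medians of the deposited signals (ko1, ko2, wild type, heterozygous) were 2.70, 2.61, 4.01 and 2.74. Each array was scaled to a common median (factors 1.10, 1.14, 0.740 and 1.08).

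Among the 45101 probe sets, 34945 non-control sets carried exactly 1 symbol, 932 more than 1 and 9211 no symbol. The platform annotation was matched for 34754 to the RefSeq table of GRCm38.p6. Genes kept their brightest probe set, and the 13709 whose mean scaled signal exceeded 2.51 (40th percentile) were tested as log2(signal + 0.676), the pseudocount being the 20th percentile. This scale understates changes of dim genes. limma 3.58.1 in R 4.3.3 fitted 1 mean per side (lmFit, eBayes with an intensity trend, Benjamini-Hochberg adjustment, threshold 0.05) with 2 residual and 24.3 total degrees of freedom. The fit was run on simulated data with 200 changed genes and normal noise of the fitted spread. It recovered 0%, 21.5% and 62.5% of changes of 2-, 4- and 16-fold, with 0, 10 and 5 false calls. Scaled backgrounds were 6.10, 4.34, 5.60 and 7.50, and 45.2%, 32.9%, 42.6% and 59.7% of tested genes lay at or below them.

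The comparison, gene lists and tests were chosen with earlier results of these data known. Named genes were the 12 widest gaps each way among calls, 6 more each way among genes above background on all arrays, called members of each list (all where 6 or fewer, otherwise 4) with up to 3 uncalled ones, those around the threshold, the marker genes and all Arid1a and Arid1b probe sets. Further called members were named to complete a count after their values were seen. Alternatives were other scalings, pseudocounts, filters, probe set averaging, variance settings, 1 mean per genotype and each array left out. Promoter windows are those of the RefSeq table, with the files tying no coordinates to probe sets, and 9 short motifs were searched on both strands.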

Additional observations from a re-analysis of the deposited data

How the results depend on the processing

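Under other settings the count of genes higher in the homozygous lines was 62 with signals as deposited, 66 with the spiked controls set level, 16 with probe sets averaged and 0 with no intensity trend, and 17 to 122 with 1 array left out. The count lower was 52 with a common trimmed mean, 183 with the spiked controls, 56 after quantile normalization, 0 with probe sets averaged (577 at an unadjusted p under 0.05), 0 with no intensity trend, 54 with robust eBayes, 19 with 1 mean per genotype and 8 to 25 with 1 array left out. Both homozygous arrays lay higher in 1626 genes as deposited, 1002 with the spiked controls and 4328 to 5249 with 1 array left out, which leaves fewer arrays to separate. They lay lower in 5338 with the spiked controls, 1676 among genes above background on at least 2 arrays, where fewer genes were tested, and 4356 to 5062 with 1 array left out. A gap of at least 2-fold upwards was found in 396, 261 and 1043 to 1823 genes (deposited, spiked controls, 1 array left out), and downwards in 1288, 207 and 904 to 1737 (spiked controls, the background filter, 1 array left out). Where no construction is named, the cause was not tested.

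None of the 147 called genes changed direction under any of the 16 alternatives. Only the other scalings and probe set averaging could have changed it. The remaining alternatives kept the estimate, or could not turn it because the sides of called genes did not overlap. With the spiked controls set level, 11 of the 20 lists with a positive median turned negative, among them basement membrane (-0.09), respiratory chain (-0.49), adhesion and cytoskeleton (-0.57), fibroblast (-0.12) and heparan sulphate (-0.07). Relative to the median gene these 5 stayed positive under every scaling, at 0.50, 0.10, 0.01, 0.47 and 0.52 or more. No paired analysis was possible because the labels name no pairing between arrays of the homozygous and intact lines. Signals near background, a small number of arrays and the assumed intensity trend limit all calls.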

Other observations

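A few genes of simple epithelia and the cytoskeleton also passed. Of 41 adhesion and cytoskeleton genes 5 rose and 1 fell, with a median difference of 0.07. Krt18, an intermediate filament protein of simple epithelia, had 277 and 264 in ko1 and ko2 against 30.3 and 58.4 (limma adjusted p = 8.88e-05), and its partner Krt8 had 207 and 102 against 22.4 and 49.99 (adjusted p = 0.00546). The membrane-binding protein Anxa2 had 410 and 196 against 51.9 and 62.7 (adjusted p = 0.000802). The laminin receptor Bcam fell, with 1.71 and 12.5 against 47.0 and 37.0 (adjusted p = 0.00789), and with 1 array left out it passed only when that array was ko2. Without ko1 only Krt18 of the 5 passed, and Krt18, Krt8 and Anxa2 did not pass without wild type. Ccn2 and Ccn1, matricellular proteins, rose as well. Ccn2 had 173 and 68.2 against 5.66 and 16.3, and Ccn1 had 25.8 and 32.8 against 4.68 and 6.09, and neither passed without ko1. Of 24 heparan sulphate genes 2 rose, the sulphotransferase Hs3st1 (65.5 and 28.2 against 0.293 and 3.32) and the core protein Sdc4 (123 and 53.1 against 12.8 and 15.2), and neither passed without ko1.

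Of 28 imprinted genes Igf2 and Peg3 rose and Meg3 fell. The growth factor gene Igf2 had 26.9 and 53.2 against 12.3 and 5.23 (limma adjusted p = 0.0288), with ko2 above ko1, and Peg3 had 37.8 and 42.1 against 10.5 and 7.42 (adjusted p = 0.0123). Neither passed without ko1, without ko2 or without heterozygous. B2m, the light chain of class I antigen presentation molecules, had 24.5 and 32.2 against 1.14 and 6.25 (at least 4.33-fold higher, adjusted p = 0.0115), and passed only without heterozygous when 1 array was left out.

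Promoter windows of the called genes were near those of all genes tested in most features. Median G+C was 62.2% for rises, 62.7% for falls and 60.0% for all, and the CpG ratio, observed over that given by the base counts, was 0.686, 0.696 and 0.726. AGATAA, read by GATA factors, was in 3.26% of the windows of rises, in none of the 27 of falls and in 7.16% of all. TGTTTAC (forkhead factors) was in 5.43%, none and 2.67%, GGGCGG (GC box) in 70.7%, 77.8% and 59.1%, and TATAAA in 13.0%, 3.70% and 8.58%. ACAAAG (SOX factors) was in 10.9%, 11.1% and 14.7%, and ATTTGCAT (the octamer) in none, 3.70% and 1.39%. TGANTCA (AP-1) was in 6.52%, 3.70% and 5.68%, and CACGTG (E-box) in 5.43%, 7.41% and 9.60%. Matches of different motifs may overlap, and these windows leave out distal elements.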
